A study of Mus musculus with 2 samples.

Results

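Endothelial cells, which line the blood and lymphatic vessels, were picked out of single-cell transcriptomes of mouse back skin and preputial gland (PG), a modified sebaceous gland of rodents. A barcode was kept when it held at least 500 genes and 1000 unique molecular identifiers (UMIs, counts of captured RNA molecules) and at most 10% mitochondrial UMIs. A kept barcode counted as endothelial when it held a UMI of 2 or more of the 6 genes Pecam1, Cdh5, Cldn5, Emcn, Lyve1 and Prox1, held none of the leukocyte gene Ptprc, and held fewer than 20 Krt5 and Krt14 UMIs per 10000. This gave 149 of 13598 kept barcodes, of which 92 of 8899 came from skin and 57 of 4699 from PG. Members without Lyve1 and Prox1 are called blood members (63 in skin, 54 in PG), and members with either gene are called lymphatic members (29 and 3).

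Each tissue was represented by 1 library, made from the pooled tissue of 3 male wild type C57BL/6 mice aged 52 weeks. The paper names 3 mice for the whole study, as the source of both tissues. Back skin was sampled as biopsies and the PG as whole glands, and both were dissociated with the same kit. With 1 library per tissue, tissue, dissociation, library and pool cannot be told apart, and no difference between tissues could be tested. The values are therefore given side by side. Their exact 95% intervals speak to counting error alone. The skin library held 37675226 UMIs and the PG library 26288071. The deposited barcode lists differed in length, with 6794880 entries for skin and 737280 for PG, of which 77142 were the same, and 0 kept barcodes occurred in both libraries. The labels name the same kit for both, which lists of different length put in doubt, and a difference in chemistry likewise cannot be told apart from tissue.

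Blood vessels run from arteries through capillaries to venules, and each segment has its own gene programme. Capillaries of skin and fat tissue take up fatty acids, which lipoprotein lipase releases from lipoproteins at the vessel wall. Postcapillary venules carry the selectins and adhesion molecules that catch leukocytes, whereas lymphatic capillaries take up tissue fluid and guide dendritic cells through the chemokine CCL21.

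The label held against genes that the rule did not use. Of 22 other pan-endothelial genes, a median of 7 were found per skin member and 9 per PG member. At least 3 of them were found in 85 of 92 skin members and 56 of 57 PG members, against 0.449% and 0.677% of keratinocyte barcodes, which were deeper (median 2488 and 2847 UMIs against 1844 and 1483 in members). The 15 genes with the highest ratio of members over all other barcodes included, in skin, Mmrn1, Emcn, Flt4, Cldn5, Reln, Btnl9, Podxl and Erg. In PG they included Emcn, Cldn5, Cdh5, Gpihbp1, Robo4, Aqp7, Kdr and Timp4. Emcn, Cldn5 and Cdh5 are markers of the rule and had to rank high. The members were chosen by UMIs of the 6 markers in these same cells, so this is a check of the name and not a finding.

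Just outside the rule lay 85 skin and 29 PG barcodes with 1 of the 6 markers, and they held 8.23 and 27.2 pan-endothelial UMIs per 10000. Barcodes with exactly 2 markers, just inside it, held 67.0 and 70.5. The keratin limit left out 10 skin barcodes and 1 PG barcode, and the highest member lay at 13.1 and 16.7 Krt5 and Krt14 UMIs per 10000 against a lowest value of 25.9 and 48.2 among those left out. The Ptprc limit left out 1 barcode, from skin. Among blood members, Pecam1, an adhesion molecule of the cell junctions, was found in 46 of 63 skin and 40 of 54 PG cells. Cdh5, the cadherin of endothelial junctions, was found in 50 and 45 cells. The tight junction gene Cldn5 was found in 37 and 38, and Emcn, a sialomucin of the cell surface, in 36 and 28. These 4 genes are part of the rule, so their frequency describes how the members were chosen.

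**Figure D1:**
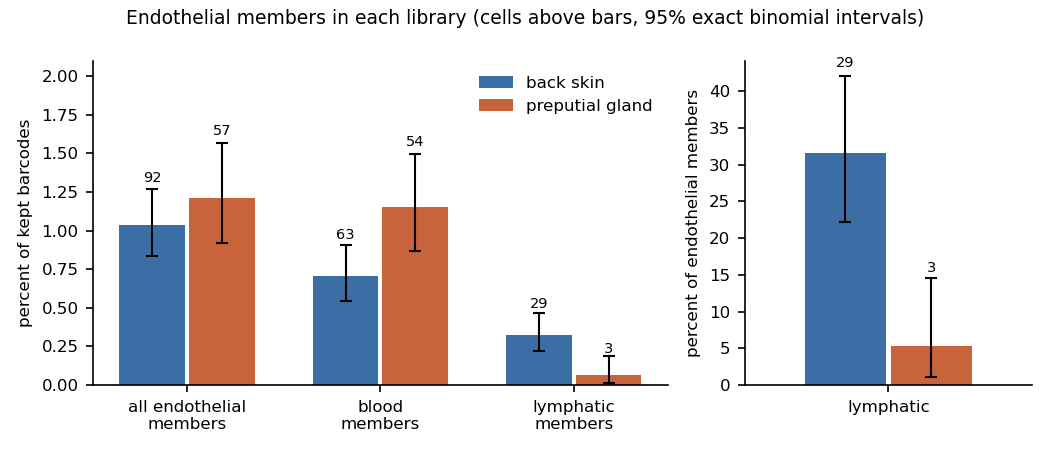
Shares of endothelial members in back skin (blue) and preputial gland (orange), as percent of kept barcodes (left) and, for lymphatic members, as percent of all endothelial members (right). Bars give the share, error bars the exact 95% binomial interval and numbers the cells, and the lymphatic share of members was 31.5% in skin and 5.26% in PG.

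Endothelial members made up 1.03% of the kept barcodes in skin (95% interval 0.834 to 1.27) and 1.21% in PG (0.920 to 1.57), so the intervals overlapped. Blood members made up 0.708% (0.544 to 0.905) and 1.15% (0.864 to 1.50). Lymphatic members made up 0.326% (0.218 to 0.468) and 0.0638% (0.0132 to 0.186). Of the endothelial members, 31.5% (22.2 to 42.0) were lymphatic in skin and 5.26% (1.10 to 14.6) in PG, and these intervals did not overlap. The PG value rests on 3 cells and moved with the limits on depth. At 200 genes and 500 UMIs 35 of 113 skin members (95% interval 22.6 to 40.4%) and 11 of 103 PG members, 10.7% (5.45 to 18.3), were lymphatic, and at 1000 genes and 2000 UMIs the shares were 27.5% (14.6 to 43.9) and 13.3% (1.66 to 40.5), where the intervals overlapped. The share of all members in PG was 1.71% and 0.526% at these limits. Dissociation can set such shares too, and members were shallower than the other barcodes (median 1844 against 2389 UMIs in skin, 1483 against 2750 in PG). The part of dissociation in the shares was not tested.

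**Figure D2:**
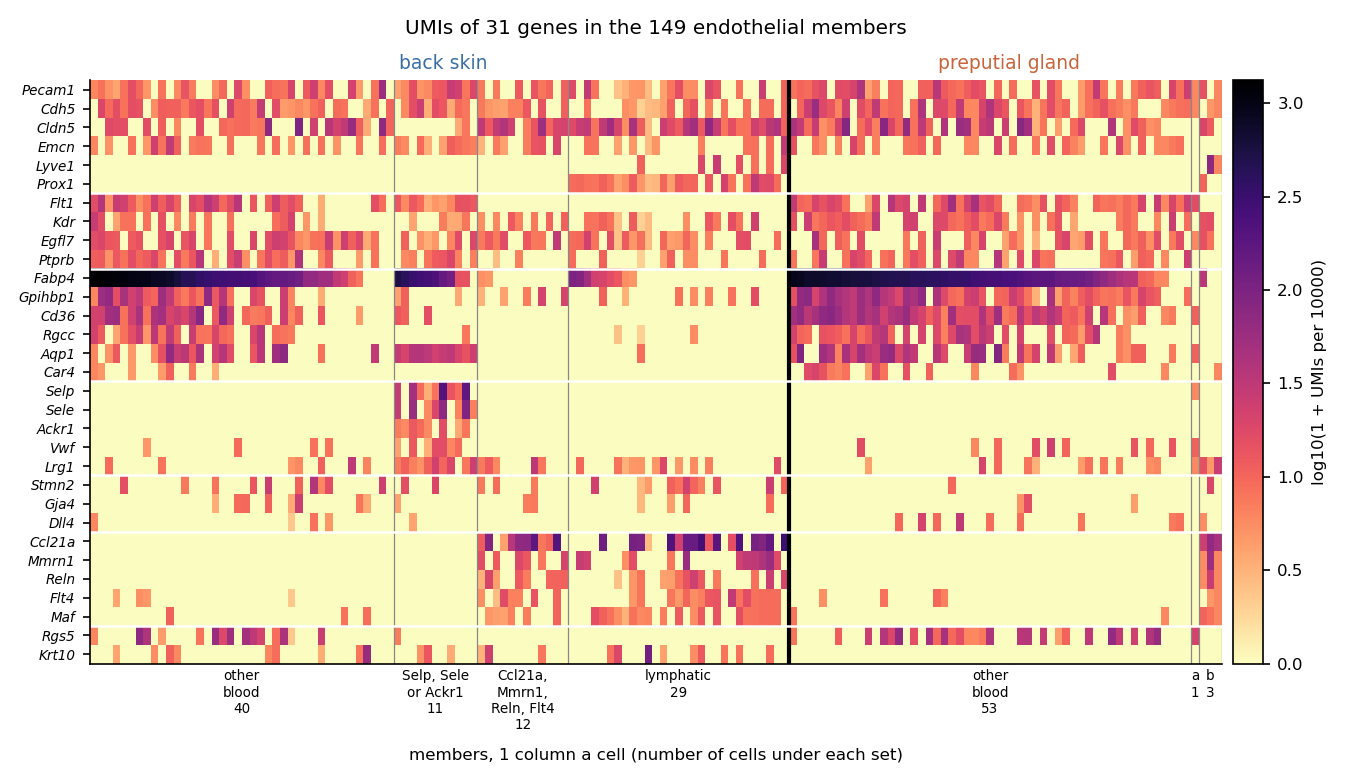
UMIs of selected genes in the 149 endothelial members, 1 column per cell, as log10 of 1 plus UMIs per 10000 (dark, high), with back skin left of the heavy line and preputial gland right of it. Thin lines separate the sets described in the text (a, the 1 PG cell with Selp; b, the 3 PG lymphatic members), and Fabp4 fills most other blood members of both tissues while Selp, Sele and Ackr1 fill a block of 11 skin cells.

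Skin blood members fell into 3 sets, drawn after the values had been seen. A first set of 11 cells held a UMI of Selp, Sele or Ackr1, which encode P-selectin, E-selectin and a chemokine receptor of venules. A second set of 12 cells held 2 or more of the lymphatic genes Ccl21a, Mmrn1, Reln and Flt4 but neither Lyve1 nor Prox1. The other 40 cells held neither pattern. Of the 54 PG blood members, 1 belonged to the first set, 0 to the second and 53 to the rest. The genes that chose a set are not a finding about it, and its other genes are given as a description with no test.

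Selp, Sele and Ackr1 lay together in skin. The 11 cells held 132 Selp UMIs in 9 cells, 77 Sele UMIs in 8 cells and 18 Ackr1 UMIs in 8 cells, and 6 of the 11 held all 3 genes. Selp was uneven among them, since the cell with most of it held 68 of the 132 UMIs and also the most Sele (24), Ackr1 (5) and Csf3 (32, a granulocyte growth factor). In PG, 1 Selp UMI was found in 1 of 57 members, and Sele and Ackr1 were at 0, which allows up to 5.26% of members with a UMI of each (3 counts of 57). Fibroblast barcodes held no Selp or Sele in either tissue, but Ackr1 was found in 9.46% of skin fibroblasts (median 1842 UMIs), close to the 12.7% of skin blood members (median 2047 UMIs), and in 5.21% of PG fibroblasts. Ackr1 alone placed 1 of the 11 cells.

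The genes Selp and Sele are neighbours on chromosome 1, with start sites 67.0 kb apart, and are known to be driven together in activated endothelium. The 200 bases before the start sites of the 3 genes are printed for that reason from RefSeq (GRCm38.p6), 5′ to 3′ on the gene's strand. Those of Cldn5, a marker of the rule that was nearly absent from the same cells, are printed beside them. Capitals mark matches on either strand to AGGAAG, the core bound by many endothelial factors of the ETS family, and CTTCCT is that core on the other strand. The core was found in 24.7% of 32851 such windows of all promoters. An NF-kB motif, written as GGG, any 2 bases and TTTCC and searched on both strands, was found in 1.18% of windows and in 0 of the 4 printed. A match is a stretch of letters and not a site shown to be bound. Each motif was searched in that spelling only, so a window without a match may still hold a site spelled otherwise.
Sele (chr1:164048034-164048233, plus strand): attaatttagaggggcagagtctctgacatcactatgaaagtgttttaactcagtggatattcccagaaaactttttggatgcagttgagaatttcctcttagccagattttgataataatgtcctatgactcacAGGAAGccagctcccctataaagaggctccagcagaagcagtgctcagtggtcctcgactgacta
Selp (chr1:164115064-164115263, plus strand): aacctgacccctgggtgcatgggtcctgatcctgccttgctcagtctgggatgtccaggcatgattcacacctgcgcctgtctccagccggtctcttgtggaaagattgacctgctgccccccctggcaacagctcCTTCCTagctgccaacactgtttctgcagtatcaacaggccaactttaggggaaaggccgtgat
Ackr1 (chr1:173333504-173333703, minus strand): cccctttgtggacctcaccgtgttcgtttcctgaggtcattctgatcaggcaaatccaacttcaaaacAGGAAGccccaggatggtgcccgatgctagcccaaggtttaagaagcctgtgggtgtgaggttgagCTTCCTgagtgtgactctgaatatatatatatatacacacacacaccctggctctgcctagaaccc
Cldn5 (chr16:18776647-18776846, plus strand): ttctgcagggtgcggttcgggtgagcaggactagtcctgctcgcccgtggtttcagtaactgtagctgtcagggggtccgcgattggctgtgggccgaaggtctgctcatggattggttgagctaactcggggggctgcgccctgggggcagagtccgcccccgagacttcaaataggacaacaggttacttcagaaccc
Sele held 1 core that began 65 bases before the start site and Selp 1 at 64 bases. Ackr1 held 2, at 132 and 66 bases, and Cldn5 held 0.

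Other genes of the 11 cells set them apart from the other 40 skin blood members. Vwf, the platelet-binding von Willebrand factor of larger vessels, was found in 7 of 11 cells (20 UMIs) and 4 of 40 (5 UMIs). Icam1, a ligand of leukocyte integrins, was found in 7 of 11 cells (27 UMIs) and 3 of 40 (3 UMIs). Lrg1, a secreted glycoprotein of venules, was found in 10 of 11 cells, and its level was 993 CPM (UMIs per 1000000 UMIs of the group) against 191. Ehd4, a gene of endocytic recycling, was found in all 11 cells, at 1396 against 315 CPM. Aqp1, the water channel, and Plvap, the protein of fenestral diaphragms, were likewise found in all 11, and Aqp1 stood at 2699 against 1059 CPM. Aqp1 and Plvap are 2 of the 12 genes of the capillary list, and the others of that list were lower in the 11 cells than in the 40. Gpihbp1 was found in 3 of 11 cells, Cd36 in 3, Cd300lg in 4, Rgcc and Rbp7 in 1 and Car4, Timp4, Lpl and Btnl9 in 0. Cldn5 was found in 2 of 11 cells (2 UMIs) against 24 of 40 (102 UMIs), although the 11 cells were deeper (median 3305 against 1983 UMIs). Cldn5 is a marker of the rule, so its frequency depends in part on how the members were chosen. Fabp4 was found in 10 of 11, at 22460 against 41882 CPM.

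**Figure D3:**
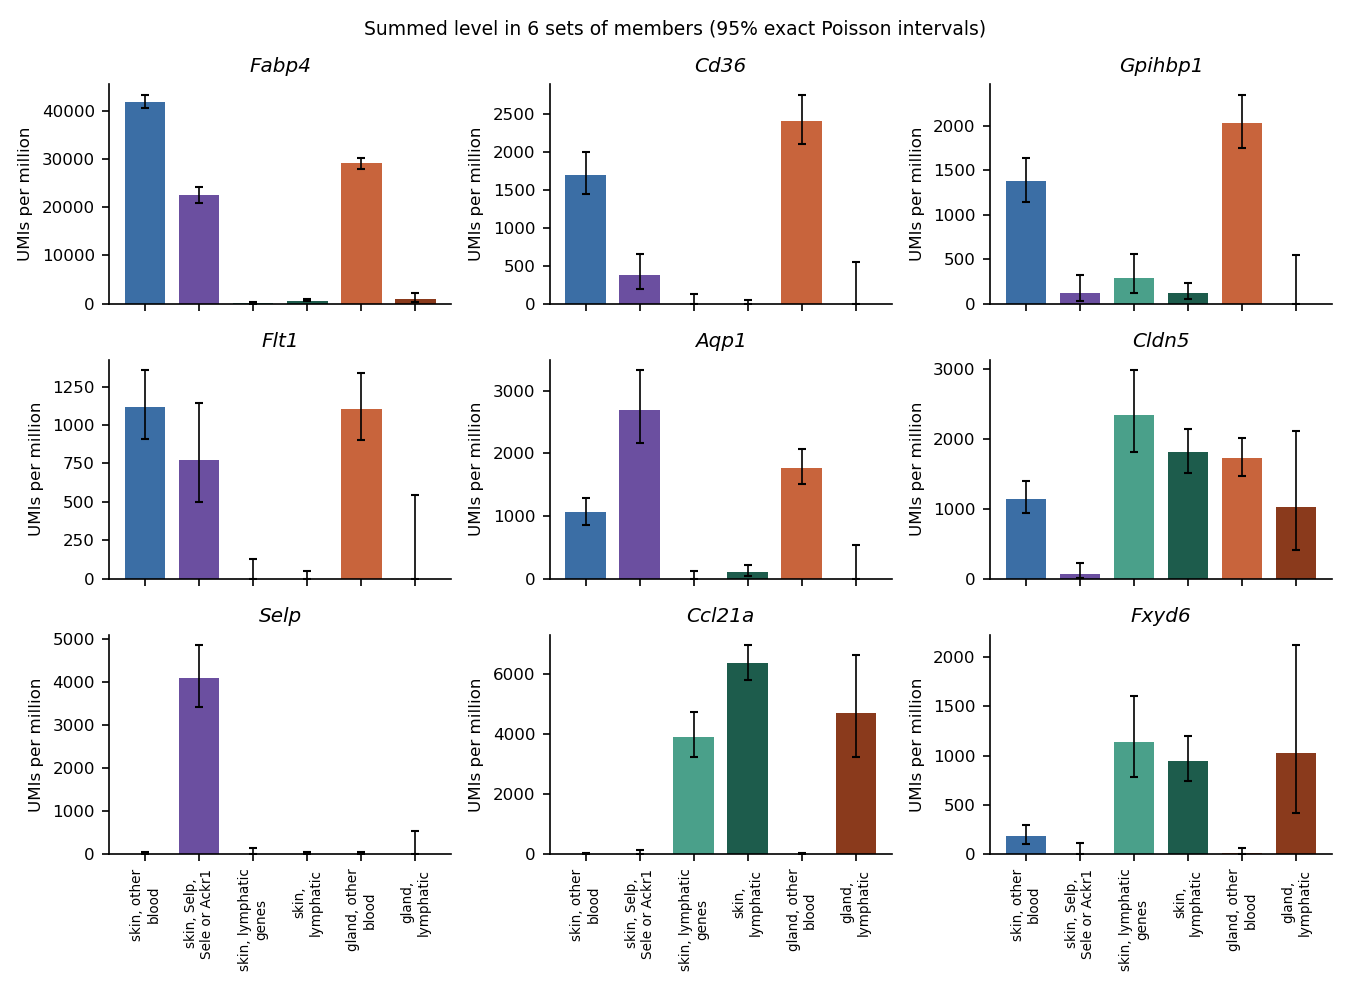
Summed level of 9 genes in 6 sets of endothelial members, in UMIs per 1000000 (CPM), with bars for the level and error bars for the exact 95% Poisson interval. Selp lay in the skin set chosen with it, Aqp1 was highest there, and Cldn5, a marker of the rule, was lowest there. Ccl21a and Fxyd6 were high in the skin cells with lymphatic genes as in lymphatic members of both tissues.

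The 12 skin cells with lymphatic genes stood with the lymphatic members in genes that no rule had used. Fxyd6, a regulator of the sodium pump, was found in 9 of 12 cells (1139 CPM), against 27 of 29 lymphatic members (947 CPM) and 8 of the other 40 blood members (180 CPM). Fgl2 was found in 9 of 12 cells (2029 CPM), against 1496 CPM in lymphatic members and 124 in the other 40. Clca3a1 followed the same order, at 783, 604 and 90.1 CPM. The VEGF receptor gene Flt1, Cd36, Aqp1 and Esam were at 0 in all 12, which allows 107 CPM of each. Flt1 and Cd36 were also at 0 in all 29 lymphatic members. Other capillary genes were present, since Gpihbp1 was found in 5 of the 12 cells, Plvap in 6 and Fabp4 in 2. In the 29 lymphatic members they were found in 7, 11 and 9 cells. The 12 cells held no Lyve1 or Prox1 UMI and so were counted as blood. With a call on 2 or more of 7 lymphatic genes 38 of 92 skin members and 3 of 57 PG members were lymphatic.

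Lymphatic members of skin were told from blood members by Prox1, the transcription factor of lymphatic identity, in 25 of 29 cells and by the hyaluronan receptor Lyve1 in 7 of 29. Prox1 stood alone in 22, Lyve1 alone in 4 and both were found in 3, and 5 cells were endothelial members only through these genes. Of 1724 genes with at least 20 UMIs over both groups, 8.99% were 2-fold or more higher in lymphatic than in blood members of skin and 13.3% were 2-fold or more lower (median log2 ratio 0.06). Of the 8 lymphatic genes outside the rule that could be compared, 7 were higher and 0 lower, with a median log2 ratio of 2.20. Ccl21a, the chemokine for dendritic cells, stood at 6355 CPM in lymphatic and 738 in blood members, a log2 ratio of 3.11 (2.80 to 3.42). It was found in 17 of 29 lymphatic members, between 0 and 104 UMIs a cell, and near-identical gene copies may share its reads. The transcription factor Maf had a log2 ratio of 2.58 (1.60 to 3.66), the matrix protein Mmrn1 2.27 (1.53 to 3.06), the matrix glycoprotein Reln 2.13 (1.17 to 3.16) and the VEGF-C receptor Flt4 1.85 (0.95 to 2.80). The 12 blood members with lymphatic genes lower each of these ratios, since they held all 110 Ccl21a, all 22 Mmrn1 and all 14 Reln UMIs of the skin blood members, genes on which they had been chosen.

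Genes of fatty acid handling and of leukocyte capture were lower in skin lymphatic members. All 8 compared genes of fatty acid handling were 2-fold or more lower (median log2 ratio -3.19), as were 10 of 11 capillary genes (-2.86) and 7 of 10 genes of leukocyte adhesion (-3.33). Fabp4, the fatty acid carrier, stood at 645 against 29812 CPM, a log2 ratio of -5.53 (-5.98 to -5.12). Cd36, the fatty acid receptor, had 0 UMIs against 163, so it was at most -4.73. Scarb1, a receptor for high density lipoprotein, had 1 UMI against 77, at -5.23 (-10.56 to -2.71). Of the VEGF receptors and co-receptors, Flt1 and Nrp1 were at 0 in lymphatic members (log2 ratio at most -4.34 and -3.36), Kdr had a log2 ratio of -0.60 (-1.40 to 0.15) and Nrp2 of 0.42 (-0.49 to 1.31). The chemokine gene Cxcl12 was at -4.51 (-6.15 to -3.27), whereas Nr2f2, a transcription factor of veins and lymphatics, was higher at 1.40 (0.59 to 2.24).

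**Figure D4:**
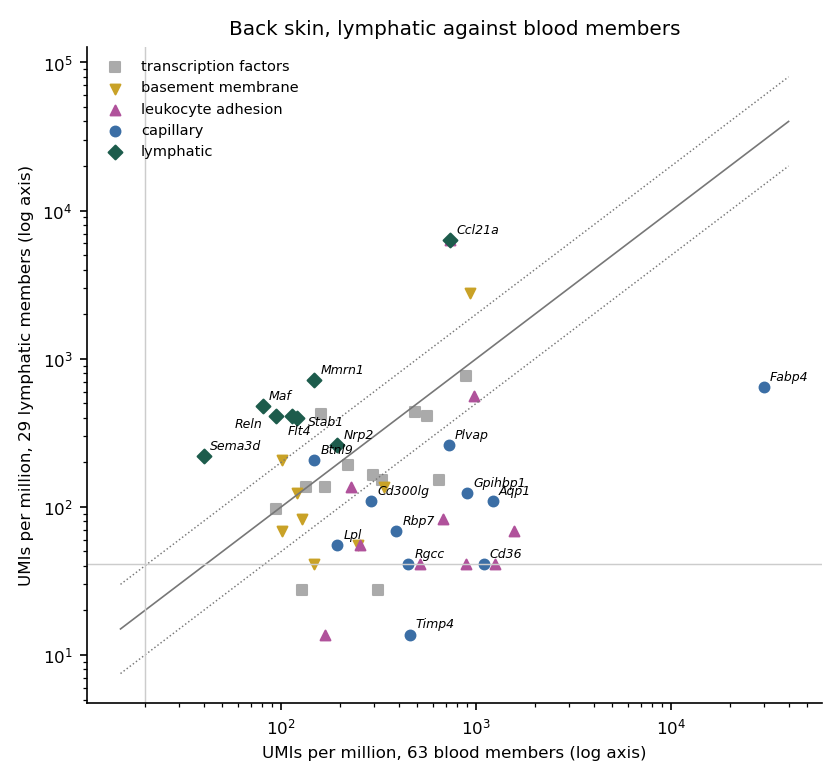
Level in the 29 lymphatic members (vertical) against the 63 blood members (horizontal) of back skin, in UMIs per 1000000 (CPM) on log axes, for genes of 5 lists. The solid line marks equal levels, dotted lines 2-fold, and grey lines the level that 3 UMIs give, where genes at 0 are drawn; lymphatic genes lie above the diagonal and most capillary genes below it.

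Single cells carried much of the other-lineage signal in skin lymphatic members. Of 8 keratinocyte markers compared, 6 were 2-fold or more higher in lymphatic than in blood members (median log2 ratio 1.59). All 4 fibroblast markers compared were higher (5.69), against 8.99% of all genes. Of the 92 skin members, 14 held 4 or more keratinocyte markers. Of 477 UMIs of 8 fibroblast markers, 470 lay in 1 cell, and of 454 UMIs of 10 keratinocyte markers, 303 lay in 1 cell. Krt17, among the 10 genes with the highest lymphatic over blood ratio, had 46 of 89 UMIs in 1 cell, Ctsk 18 of 20 and Calm4 49 of 55. Their part in the ratios was not tested.

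The 3 PG lymphatic members held 2141, 2695 and 1962 UMIs. The first held 2 Prox1 UMIs and the others 19 and 1 Lyve1 UMIs. Ccl21a was found in all 3, with 5, 18 and 9 UMIs, Mmrn1 with 1, 15 and 1, Reln with 1, 7 and 1 and Maf with 2, 2 and 1, so genes the rule had not used carried the lymphatic pattern in each. Ccl21a, Mmrn1 and Reln were at 0 in the 54 PG blood members. One of the 3 cells also held 37 UMIs of fibroblast markers. With 3 cells, no level of PG lymphatic vessels is set beside that of skin.

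Blood members were then compared between the tissues, with the UMIs of all blood cells of a tissue summed (149132 in skin, 94452 in PG) and scaled to CPM. Of 1943 genes with at least 20 UMIs over both tissues, 13.8% were 2-fold or more higher in PG and 10.9% were 2-fold or more lower, with a median log2 ratio of 0.07 and 90% of genes between -1.47 and 1.66. In this pooled sum fewer cells of a kind and fewer UMIs per cell cannot be told apart, so the 23 skin cells and 1 PG cell of the first 2 sets were also left out. Of 59 named genes past 2-fold, 46 could be compared in the other blood members and 36 of these were past 2-fold there in the same direction. The other 10 were Cd300lg, Cd36, Ehd4, Gpihbp1, Jun, Lama5, Lrg1, Ly6a, Rgcc and Sox17. Of 1442 genes compared in these other blood members, 224 were higher and 117 lower. In fibroblast barcodes of the same libraries, whose ratios are set beside some genes, 10.4% of 10034 genes were 2-fold or more higher in PG and 10.7% lower.

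**Figure D5:**
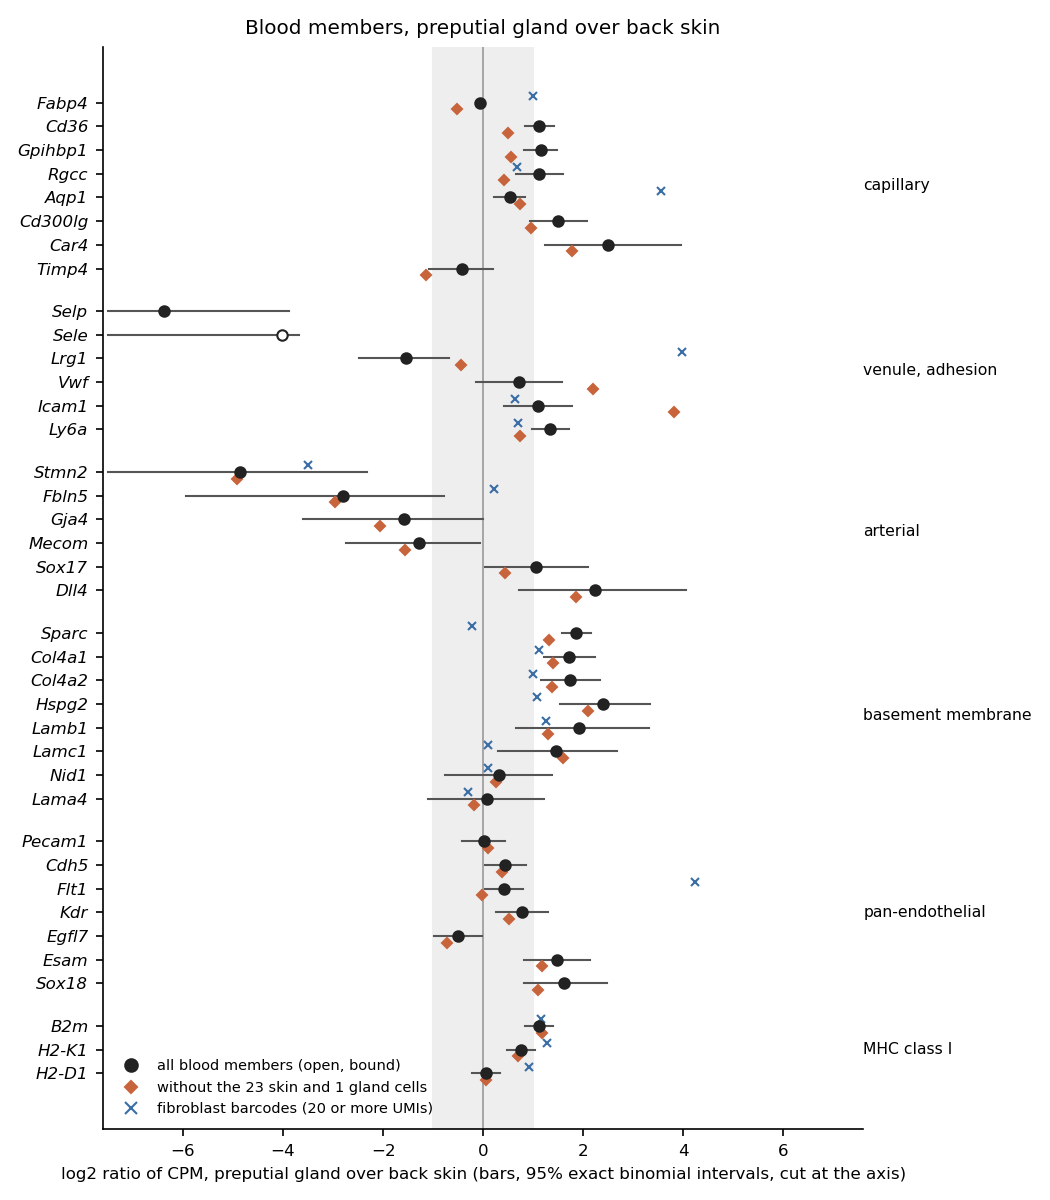
Log2 ratio of CPM, preputial gland over back skin, for blood members (black, with exact 95% binomial intervals; open, bound for a gene at 0), for blood members without the 23 skin and 1 PG cells (orange) and for fibroblast barcodes of the same libraries (blue crosses, genes with 20 or more UMIs). The grey band is within 2-fold; genes of the basement membrane such as Sparc, Col4a1 and Hspg2 lie right of it in all blood members and in the other blood members, whereas Cd36 and Gpihbp1 move into the band.

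Capillary genes were found in more of the PG cells. At least 5 of 12 capillary genes were found in 45 of 54 PG and 32 of 63 skin blood members, although the PG cells were shallower. At least 8 were found in 15 of 54 and 18 of 63, so that the higher number did not show this order. Gpihbp1, which holds lipoprotein lipase at the capillary wall, was found in 47 of 54 cells (1990 CPM) in PG and 32 of 63 (899 CPM) in skin. Cd36 was found in 48 cells (2382 CPM) and 30 cells (1093 CPM). Both genes together were found in 42 of 54 PG cells and 25 of 63 skin cells, and neither in 1 and 26. Over the blood members outside the first 2 sets, both genes were found in 42 of 53 PG and 23 of 40 skin cells, neither in 1 and 12, and at least 5 capillary genes in 45 and 27. In keratinocyte barcodes these genes were found in at most 0.888% of cells in either tissue.

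Of the 12 capillary genes, 5 were 2-fold or more higher in PG and 0 lower, against 13.8% and 10.9% of all genes. The median log2 ratio of the list was 0.56. Gpihbp1 had a log2 ratio of 1.15 (0.82 to 1.48), Cd36 of 1.12 (0.83 to 1.42), Rgcc of 1.12 (0.65 to 1.59), Cd300lg, a mucin-like receptor of capillaries, of 1.50 (0.94 to 2.07) and Car4, a carbonic anhydrase of the capillary surface, of 2.50 (1.25 to 3.95). Without the 23 skin and 1 PG cells these came to 0.57, 0.50, 0.42, 0.96 and 1.78, so that Car4 alone of the 5 was still past 2-fold. The median of the list came to 0.25. In 4 of the 5 genes the difference past 2-fold thus moved with the cells left out.

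Fabp4 took 2.98% of all UMIs of skin blood members and 2.85% of those of PG, a log2 ratio of -0.07 (-0.14 to 0.00). Per cell it ranged from 0 to 13.2% of UMIs in skin, with a median of 1.52%, and from 0 to 9.12% in PG, with a median of 2.62%. In the other blood members the ratio was -0.53, with 41882 CPM in skin and 29092 in PG. The median cell of the other blood members held 266 Fabp4 UMIs per 10000 in skin and 265 in PG, so the summed levels differed, within 2-fold, where the medians did not. Timp4, an inhibitor of matrix proteases, had a log2 ratio of -0.43 in all blood members and -1.15 (-1.80 to -0.52) in the others, and the transcription factor genes Meox2 and Tcf15, known to drive fatty acid uptake in capillaries, lay within 2-fold at 0.11 and 0.06.

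Genes of the basement membrane, the sheet of matrix on which endothelial cells rest, were higher in PG blood members. Of 11 compared, 7 were 2-fold or more higher and 0 lower, against 13.8% and 10.9% of all genes. The median log2 ratio was 1.45, and 1.31 in the other blood members. Sparc, a collagen-binding protein, stood at 925 CPM in 36 of 63 skin cells and 3356 CPM in 53 of 54 PG cells, a log2 ratio of 1.86 (1.57 to 2.16). The type IV collagen chain Col4a1 stood at 335 and 1101 CPM, at 1.72 (1.22 to 2.23), and Col4a2 at 1.73 (1.15 to 2.34). Hspg2, the core protein of perlecan, was found in 8 skin and 32 PG cells, at 2.40 (1.54 to 3.34). The laminin chains Lamb1 and Lamc1 were at 1.91 (0.65 to 3.31) and 1.45 (0.30 to 2.67), and Lama5 was at 1.30 with an interval that reached -0.01. Sparc, Col4a1, Col4a2 and Hspg2 were past 2-fold under all 15 alternatives tried.

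The same order was seen cell by cell. Thinned to 1000 UMIs a cell, Sparc was found in 42.9% of skin and 94.4% of PG blood members, and in keratinocyte barcodes at full depth Sparc was found in 18.6% and 36.5%. In the other blood members, Sparc ranged from 0 to 59.4 UMIs per 10000 in the 40 skin cells, with a median of 7.07, and from 0 to 117 in the 53 PG cells, with a median of 30.5. Col4a1 had medians of 3.20 and 7.72 and Cd36 of 9.21 and 20.5, whereas Fabp4 had medians of 266 and 265. The ranges overlapped for all 4 genes.

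Mural cells, the pericytes and smooth muscle cells around vessels, also make basement membrane, and their markers were found in the members. The 10 mural markers summed to 1274 CPM in skin and 2573 CPM in PG blood members, with Rgs5 as the most abundant (109 UMIs in 16 cells and 123 in 28). Of 6 mural markers compared, 4 were 2-fold or more higher in PG and 0 lower, against 13.8% and 10.9% of all genes. The median log2 ratio was 1.22. In the other blood members it was 1.11, and Acta2, Tagln, Pdgfrb and Mylk were 2-fold or more higher. With members that held 4 or more markers of mural cells or of fibroblasts left out, Sparc came to 2.05, Col4a1 to 1.94 and Hspg2 to 3.09. Members with fewer of these markers stayed in, and the part of mural RNA in the ratios was not tested. In fibroblast barcodes of the same libraries, Col4a1, Col4a2 and Hspg2 had ratios of 1.12, 0.99 and 1.08 in the same direction, and Sparc of -0.22.

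Arterial genes differed in both directions. Of 7 compared, 2 were 2-fold or more higher in PG and 4 lower, against 13.8% and 10.9% of all genes. The median log2 ratio was -1.29. Stmn2, which encodes a microtubule protein, had 46 UMIs in 15 skin cells and 1 in PG, a log2 ratio of -4.86 (-10.20 to -2.31), and it was also found in 11 of 29 skin lymphatic members. The elastic fibre protein Fbln5 was at -2.80 (-5.93 to -0.78), the connexin Gja4 at -1.59 (-3.60 to 0.00) and the transcription factor Mecom at -1.29 (-2.73 to -0.05). Mecom came to -0.60, under 2-fold, with 1000 genes and 2000 UMIs a cell. The Notch ligand Dll4 was higher in PG at 2.24 (0.71 to 4.06), with 15 UMIs in 9 cells against 5 in 5, and the transcription factor gene Sox17 was at 1.05 (0.04 to 2.09). Sox17 was under 2-fold in 7 of 14 other ways of processing, such as at 0.43 in the other blood members. There, 0 of 5 arterial genes compared were higher and 3 lower, against 224 and 117 of 1442 genes. Of 4 Notch genes compared, 3 were 2-fold or more higher, since the receptor Notch1 was at 1.45 (0.48 to 2.47) and the ligand Jag2 at 1.30 (-0.01 to 2.69), whereas the target Hes1 was at -0.93, with an interval that reached 0.05.

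Of 9 venous genes compared, 1 was 2-fold or more higher in PG and 3 were lower, against 13.8% and 10.9% of all genes. In the other blood members 2 of 6 were higher and 0 lower, against 224 and 117 of 1442 genes, with a median log2 ratio of 0.38. Selp stood at 885 CPM in skin and 10.6 in PG, a log2 ratio of -6.39 (-11.70 to -3.88), Sele had 77 UMIs against 0 and was at most -4.02, and Lrg1 was at -1.53 (-2.48 to -0.68). Lrg1 came to -0.45 in the other blood members, and of its 64 skin UMIs 32 lay in the 11 cells with Selp, Sele or Ackr1 and 15 in the 12 cells with lymphatic genes. The processing enzyme Cpe was higher in PG at 2.17 (0.87 to 3.66). Vwf was found in 10 PG and 11 skin cells and had a log2 ratio of 0.72 (-0.13 to 1.57) in all blood members but 2.20 (0.79 to 3.95) in the others, where 9 of 53 PG and 4 of 40 skin cells held it. PG blood members thus held Vwf without Selp, Sele and Ackr1 in all but 1 of the 10 cells with it.

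Of 10 genes of leukocyte adhesion compared, 2 were 2-fold or more higher in PG and 3 lower, against 13.8% and 10.9% of all genes. In the other blood members 1 of 7 was higher and 1 lower, against 224 and 117 of 1442 genes. Of 9 genes of antigen display 5 were higher and 0 lower, 4 of them class II genes carried largely by 1 PG cell. Icam1 was found in 17 PG and 13 skin cells, at a log2 ratio of 1.10 (0.42 to 1.78). It was under 2-fold in 4 of 15 other ways of processing, at the lowest 0.23 with 1000 genes and 2000 UMIs a cell, and 0.73 with members left out that held 4 or more fibroblast or mural markers. In the other blood members it was found in 16 of 53 PG and 3 of 40 skin cells, at 3.82 (2.17 to 6.15). Ly6a, the surface protein Sca-1, was at 1.34 (0.97 to 1.71) and came to 0.74 in the other blood members, and Cxcl12 was at -0.64, with an interval that reached -0.29, and came to -1.24 in the other blood members. Of MHC class I genes, B2m was at 1.12 (0.84 to 1.39), H2-K1 at 0.76 (0.47 to 1.04) and H2-D1 at 0.05 (-0.23 to 0.33), and in fibroblast barcodes B2m was at 1.15. The MHC class II gene Cd74 was at 4.56 (3.59 to 5.72), but 98 of its 134 PG UMIs lay in 1 cell. That cell held 44 H2-Aa, 12 Tyrobp and 9 C1qa UMIs, which are genes of macrophages and other antigen-presenting cells, beside 80 Fabp4, 8 Cldn5 and 4 Cdh5 UMIs. It also held 39 of 55 H2-Eb1 and 26 of 36 H2-Ab1 UMIs. Without the cell of each tissue with most of the gene, Cd74 came to 3.24, H2-Aa to 4.12, H2-Eb1 to 2.66 and H2-Ab1 to 0.98, under 2-fold. H2-Aa and H2-Ab1 then held fewer than 20 UMIs over both tissues, below the limit set for the main ratios.

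Of 22 pan-endothelial genes, 5 were 2-fold or more higher in PG and 1 lower, against 13.8% and 10.9% of all genes. The other 16 lay within 2-fold, and the median log2 ratio of the list was 0.30. Esam, an adhesion molecule of endothelial junctions, was at 1.47 (0.81 to 2.14), and the transcription factor genes Sox18 and Sox7 at 1.62 (0.81 to 2.48) and 1.24 (0.11 to 2.43). Robo4, a guidance receptor of endothelium, was at 1.17 (0.12 to 2.27), and Sox17 is given above. Ecscr, a gene of endothelial migration, was lower at -1.14 (-1.91 to -0.42). The VEGF receptor genes Flt1 and Kdr lay within 2-fold, with Flt1 at 0.42 (0.03 to 0.81) and Kdr at 0.77 (0.25 to 1.29).

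Of 8 genes of BMP and TGF-beta signalling compared, 1 was 2-fold or more lower in PG, and of 8 genes of vessel tone and coagulation 2 were, against 10.9% of all genes. Id1, a target of bone morphogenetic protein signals, was at -1.45 (-2.25 to -0.72). Edn1, which encodes the vasoconstrictor endothelin, had 22 UMIs in 14 skin cells and 1 in PG, at -3.80 (-9.17 to -1.17), and Procr, the protein C receptor, was at -1.26 (-2.26 to -0.35). Procr came to -0.72 without the cell of each tissue with most of it, and 23 of its 49 skin UMIs lay in 1 cell. Of 15 immediate early and heat shock genes, Jun was lower at -1.47 (-1.82 to -1.13) and 14 lay within 2-fold, with a median of -0.34. In the other blood members Jun came to -0.71 and the median to 0.63. There, 4 of the 15 were 2-fold or more higher in PG, against 224 of 1442 genes. The 4 were Egr1 at 1.43, Dusp1 at 1.11, Atf3 at 1.09 and Zfp36 at 1.07. Jun was highest in the 12 skin cells with lymphatic genes, with 179 UMIs in 9 cells, 87 of them in 1 cell. Of 8 genes of dividing cells such as Mki67 and Top2a, 2 or more were found in 2 skin and 4 PG members.

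The remaining lists are read against the 13.8% of all genes that were higher and the 10.9% that were lower. Counts in the other blood members are read against the 224 higher and 117 lower of 1442 genes there. Of 8 genes of fatty acid handling, 2 were higher and 0 lower (median log2 ratio 0.15). In the other blood members 0 of 8 were higher and 0 lower (median -0.27). Of 7 VEGF and Tie genes 0 were higher and 1 lower (0.19). Of 10 junction genes 1 was higher and 1 lower (median log2 ratio 0.10). In the other blood members 3 of 9 were higher and 1 lower (median 0.36), and the connexin Gja1 came from 0.41 to 1.64 and F11r, an adhesion molecule of tight junctions, from 0.52 to 1.46. Of 16 transcription factor genes 3 were higher and 0 lower (0.25), the shear-responsive factor Klf2 being at -0.70 (-1.19 to -0.22). Of 9 genes of caveolae and transport, 1 was lower (median -0.04), which was Ehd4 at -1.54 (-2.39 to -0.77), a gene high in the 11 skin cells that came to -0.87 without the 23 skin and 1 PG cells. Cav1, the coat protein of caveolae, was at -0.59 (-1.02 to -0.17). The genes of BMP and TGF-beta signalling had a median of -0.49. Of 3 genes of sphingolipid signalling, 1 was lower, which was the ceramide enzyme Ugcg at -1.23 (-2.68 to 0.01), and the receptor S1pr1 was at -0.93 (-1.71 to -0.19). Both steroid receptor genes compared lay within 2-fold. Of 5 lymphatic genes 3 were lower, with a median of -1.43, and in the other blood members 1 could be compared, at 0.39. Of the sprouting list only Lamb1, given above, had enough UMIs.

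Outside these lists, the genes with the highest ratio in PG blood members were led by chemokines. Cxcl2 had 56 UMIs in 7 PG cells, 32 of them in 1 cell, against 1 in skin, a log2 ratio of 6.47 (3.93 to 11.80). Ccl2 was at 5.98 (3.42 to 11.32), with 18 of its 40 PG UMIs in 1 cell. Without the cell of each tissue with most of the gene, skin held 0 UMIs of both, so that Cxcl2 was at least 3.66 and Ccl2 at least 3.53. Cfd, complement factor D, had 45 UMIs in 14 cells against 2 in 2, at 5.15 (3.21 to 8.24), and Cyp1a1, a target of the aryl hydrocarbon receptor, 21 in 11 cells against 2 in 1, at 4.05 (2.02 to 7.19). Both were at no more than 1 UMI in the fibroblast barcodes of either tissue. The carbonic anhydrase gene Car3 was at 3.16 (1.89 to 4.70). The ratios of Trmt112, Hmgn2 and the unnamed gene CAAA01147332.1 were also high in fibroblasts, at 2.14, 2.54 and 5.59, and Ccl2 was at 1.25 there. Idi1, an enzyme of sterol synthesis, was at 3.40 (1.64 to 5.79) and in fibroblasts at 4.18. Free RNA of the PG library, however, held Idi1 at 13111 CPM against 212 CPM in the blood members. Among the 10 lowest, Selp, Sele and Ccl21a lay in skin only in the cell sets chosen on them. Fxyd6, Clca3a1 and Fgl2 were also found in the other 40 skin blood members, at the levels given above. The matrix protein gene Mgp was at -3.83 (-5.74 to -2.43), with 90 UMIs in 9 skin cells against 4 in 2, and Chp2 at -4.25 (-9.60 to -1.66), with 30 UMIs in 19 cells against 1.

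Markers of other cell types were low in blood members but not equal. The 8 sebocyte markers summed to 577 CPM in skin and 2139 CPM in PG, with Dbi the most abundant and the defining genes Cidea, Awat2 and Elovl3 at 0 in both tissues. The 10 keratinocyte markers summed to 2032 and 995 CPM, with Lgals7 the most abundant, and the 8 muscle markers to 355 and 42.3 CPM. The 8 fibroblast markers summed to 127 and 678 CPM, and 45 of the 64 PG UMIs lay in 1 cell. The 10 general leukocyte markers summed to 13.4 and 360 CPM, and the 10 macrophage markers had 0 UMIs in skin and 27 in PG, 21 of them in 1 cell. The 5 erythroid markers summed to 148 and 349 CPM, with 32 of 33 PG UMIs in 1 cell, and the 8 glial and melanocyte markers to 26.8 and 0 CPM. With members left out that held Tyrobp, Fcer1g, Cd52 or Lyz2, 48 of 52 named genes past 2-fold were still so, and Rgcc came to 0.92, Icam1 to 0.98, Sox17 to 0.95 and Ecscr to -0.98. With members left out that held 4 or more fibroblast or mural markers, 49 of 51 were, the others being Icam1 and Sox7. With free RNA subtracted, 58 of the 59 named genes gave a value, and all 58 were. Idi1 gave none, since the free RNA taken off exceeded its UMIs in PG blood members. The genes that could not be compared without the cells left out included Cd74, H2-Aa, H2-Ab1, H2-Eb1 and Cxcl2 for leukocyte genes and Ccl2 for fibroblast or mural markers. The part of erythroid, muscle and glial markers was not tested.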

How the data were processed

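Single-cell RNA was measured by droplet sequencing in 1 library of back skin and 1 of PG. The paper names a 3′ kit, which the barcode lists of different length put in doubt for 1 of the libraries. The authors deposited raw UMI counts per gene and barcode, written by Cell Ranger 4 per the file headers and aligned to mm10 per the submitters' processing notes. The counts are whole numbers with no normalization and no filter on barcodes, and both matrices list 32285 genes. No per-sample column was left unused, and the strand setting of the counting is not given in the sources used here.

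The members, the 31 gene lists and the rules were chosen with earlier results of these data known. For each group of cells, a gene's UMIs were added up and expressed per 1000000 UMIs of that group (CPM). Ratios were computed for genes with at least 20 UMIs over both groups, and called past 2-fold by size alone, since 1 library per tissue allows no test. This limit was not applied again where the cell of each tissue with most of the gene was left out. A gene at 0 in a group was set to 3 UMIs over the group and its ratio given as a bound. Intervals are exact at 95%, binomial for ratios and shares (Clopper-Pearson) and Poisson for levels, and their coverage was tested on simulated data. They cover counting error only, although UMIs remove copies from amplification. Fibroblast barcodes held 3 or more of 8 fibroblast markers. Genes were named from the lists (the up to 4 members with most UMIs, those past 2-fold and defining markers at 0), and outside them as the 10 highest and 10 lowest ratios with 50 CPM and 10% of cells in 1 group. Of the genes in the account of the 11 and 12 skin cells, those outside this rule were chosen after their values were seen. No doublet caller was run, and members with 4 or more fibroblast or mural markers were left out in 1 of 15 other ways of processing. Of these, 2 were added after the values had been seen. Promoters were read from RefSeq (GRCm38.p6). Python 3.11.15, numpy 2.4.6, scipy 1.17.1, pandas 2.3.3 and matplotlib 3.10.9 were used.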

Additional observations from a re-analysis of the deposited data

Results flagged for a closer look

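For 5 genes the ratio of PG over skin ran one way in blood members and the opposite way in fibroblast barcodes of the same libraries, with both intervals clear of equality. The difference between the cell types was not tested. Car3 had a log2 ratio of 3.16 in blood members and -2.79 in fibroblasts, and Cxcl2 of 6.47 and -1.17. Mgp was at -3.83 in blood members and 1.40 in fibroblasts, and Fxyd6 at -4.93 and 1.08. Lrg1 was at -1.53 in blood members, and in fibroblasts it had 23 UMIs in PG and 0 in skin, a log2 ratio of at least 3.97. Of the 48 skin Fxyd6 UMIs, 32 lay in the 12 cells with lymphatic genes, of the 64 skin Lrg1 UMIs, 32 lay in the 11 cells with Selp, Sele or Ackr1, and 32 of the 56 PG Cxcl2 UMIs lay in 1 cell.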

How the results depend on the processing

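Of 62 alternative values of the shares and of the counts of genes past 2-fold, 9 moved, a share past its main 95% interval or a count past 1.5 times. The lymphatic share of PG members, 5.26%, went to between 4.35% and 13.3%, within its wide interval. The share of members came to 0.663% in skin and 0.766% in PG when 3 markers were needed, and in PG to 1.71% at 200 genes and 500 UMIs and 0.526% at 1000 genes and 2000 UMIs. Fewer genes could be compared in each of the following. The higher genes came to 132 of 1040 at 1000 genes and 2000 UMIs and 82 of 692 with 50 UMIs per gene, from 268 of 1943. The lower genes came from 212 to 134 of 1194 with 3 markers, 45 of 692 with 50 UMIs per gene and 117 of 1442 without the 23 skin and 1 PG cells, an alternative chosen after seeing the data. The median of the lymphatic list turned from -1.43 to 0.39 without those cells, and that of the Notch list from 1.37 to -1.18 at 1000 genes and 2000 UMIs, where in each list only 1 gene still had 20 UMIs (Hes1 in the Notch list). Of 161 named or listed genes, 59 were past 2-fold and 39 of them were so under every alternative that gave a value, and 0 of the 59 reversed. Subtracting free RNA took 6.42% of skin and 15.5% of PG blood UMIs. No paired analysis was possible because each tissue has 1 library. With 3 PG lymphatic cells, and 20 UMIs the least behind a main ratio, most ratios of scarce genes are wide. Fewer UMIs could lie behind a ratio where the cell of each tissue with most of the gene was left out.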
